A study of Mus musculus with 2 samples.

Results

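The genes described here were the 10 that encode the best-known enzymes and the dedicated chaperone of collagen modification and cross-linking: P4ha1, P4ha2 and P4hb, Plod1, Plod2 and Plod3, Lox, Loxl1 and Loxl2, and Serpinh1. They were chosen by function, by their symbols, from the 21849 genes counted. All 10 were found under exactly 1 identifier each. Their levels were measured by single-cell RNA sequencing in 1 library of primary and 1 library of cultured costal-cartilage-derived stem cells (CDSCs) of the mouse, which had been compared to learn how these cells change on expansion in culture. Both libraries came from C57BL/6J neonates in their first week, of the CD45.1 or the ZsGreen line, whose rib cartilage had been digested with type II collagenase and sorted for CD45-, CD51+ cells. CD45 is a surface protein of blood cells, and CD51 is the integrin alpha V chain. The primary cells were sequenced without expansion, and the cultured cells after growth in minimal essential medium with serum, at passages 2 to 3. The number of animals behind each library was not stated.

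Collagen chains are modified on their way through the endoplasmic reticulum (ER) of the cell. Prolyl 4-hydroxylases turn prolines into hydroxyprolines, which keep the triple helix stable at body temperature, lysyl hydroxylases prepare lysines for sugars and cross-links, and the chaperone HSP47 (Serpinh1) binds the folded helix until it is exported. Outside the cell, lysyl oxidases oxidise lysines of collagen and elastin, so that neighbouring chains can bond and the fibre becomes insoluble. In cartilage the main substrate is type II collagen (Col2a1), and in fibroblasts it is type I collagen (Col1a1, Col1a2).

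Levels were read as unique molecular identifiers (UMIs), the tags that tell captured transcripts apart, added up over the kept cells of a library and expressed per 1000000 UMIs (CPM). The UMIs mark the 3' end of a transcript and were not scaled by length. Log2 ratios compare cultured with primary CPM, so that values below 0 mean less in culture, and a gene was called higher or lower when it differed by at least 2-fold. All intervals are exact 95% intervals that cover counting error only. With 1 library per group, none of the differences could be set against replicates, and no tests were made.

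Of the 11896 primary barcodes 11746 were kept, with 137148874 UMIs and a median of 10026 per cell, and of the 10798 cultured barcodes 5338 were kept, with 330129909 UMIs and a median of 56864. Of the kept barcodes 15 occurred in both libraries. The labels name bone marrow as the tissue, but the primary cells carried the cartilage genes Sox9 (1308 CPM) and Acan (1954 CPM), which stood at 81.2 and 2.51 CPM in the cultured cells. Itgav, the gene of CD51, stood at 92.5 and 109 CPM. The libraries also differed in ZsGreen (60957 UMIs in the primary, 0 in the cultured), in the Y-linked gene Uty (11 and 20195 UMIs) and in the immediate early gene Fos (5378 and 308 CPM). Donor animals, handling and culture therefore cannot be told apart, and the part of each in the values below was not tested.

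Promoters of members with a log2 ratio below 0 are shown first, for the catalytic and the shared subunit of prolyl 4-hydroxylase (P4ha1, P4hb) and for Plod1, which was lower in culture. Several members of the family are textbook targets of the hypoxia-inducible factors, whose response element has the core ACGTG or GCGTG. The 250 bases before the RefSeq start were available in build GRCm38.p6 for 6 of the 10 members, P4ha1, P4ha2, P4hb, Plod1, Plod3 and Serpinh1. Each sequence is written 5' to 3' on the strand of the gene, with every match to either core, on either strand, in capitals.
P4ha1 (chr10:59323046-59323295, plus strand): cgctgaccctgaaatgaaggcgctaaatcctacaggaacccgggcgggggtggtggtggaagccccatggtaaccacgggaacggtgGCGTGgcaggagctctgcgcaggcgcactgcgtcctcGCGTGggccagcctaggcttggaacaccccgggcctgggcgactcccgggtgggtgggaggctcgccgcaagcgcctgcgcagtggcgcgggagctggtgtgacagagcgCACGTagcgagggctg
P4hb (chr11:120573254-120573503, minus strand): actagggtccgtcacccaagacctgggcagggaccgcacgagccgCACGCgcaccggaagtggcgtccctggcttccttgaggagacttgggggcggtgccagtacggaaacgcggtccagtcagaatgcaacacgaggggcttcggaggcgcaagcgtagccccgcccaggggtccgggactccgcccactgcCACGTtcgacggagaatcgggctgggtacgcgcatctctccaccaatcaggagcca
Plod1 (chr4:147936777-147937026, minus strand): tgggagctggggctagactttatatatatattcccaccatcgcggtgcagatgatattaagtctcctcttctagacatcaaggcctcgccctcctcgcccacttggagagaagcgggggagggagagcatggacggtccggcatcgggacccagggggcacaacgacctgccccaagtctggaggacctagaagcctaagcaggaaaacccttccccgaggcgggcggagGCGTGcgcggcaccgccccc
P4ha1 carried 1 match to ACGTG and 2 to GCGTG, P4hb 1 of each, and Plod1 a single GCGTG. Over the 6 windows, 5 held ACGTG, 5 held GCGTG and 6 held at least one of them, while of 32851 windows of the same length 16.6%, 28.2% and 38.6% did. In the Plod3 window, with 1 match to ACGTG and 3 to GCGTG, 208 of the 250 bases are annotated exon of Znhit1, a gene on the other strand. The members' windows were rich in G and C (55.6% to 70%, against a median of 52.4% for all windows). None of the 6 held the palindrome CACGTG, which contains ACGTG on both strands and occurred in 6.02% of all windows. A match is a description of the sequence and not a bound site.

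Lox was far higher in the cultured cells and Loxl1 moderately so, P4ha2 and Plod1 were lower, and the remaining members differed less. Of the 10 members, 2 were at least 2-fold higher (Lox and Loxl1), against 27.2% of the 9115 genes that reached 10 CPM in one of the libraries. Another 2 were at least 2-fold lower (P4ha2 and Plod1), against 12.5% of these genes. The other 6 lay within 2-fold, each with a log2 ratio below 0. The median log2 ratio of the members was -0.55, and that of all 9115 genes was 0.37. The direction of each member held under every scaling tried, although scaling by TMM or by median of ratios moved the median of all genes by -0.21 or -0.24. With these scalings 1984 genes were higher and 1408 lower, or 1935 and 1442, in place of 2482 and 1143.

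**Figure D1:**
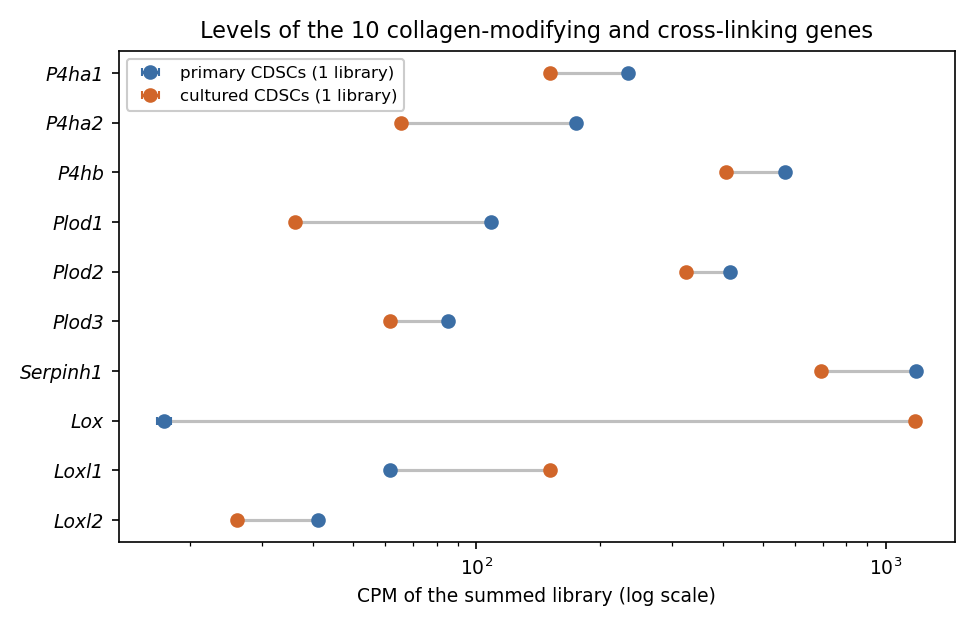
Levels of the 10 genes in both libraries, in CPM of the summed library on a log scale. Bars are exact 95% Poisson intervals, mostly narrower than the points. Lox moved from 17.3 to 1179.7 CPM, Loxl1 also stood higher in the cultured library, and the cultured points of the other 8 genes lie left of the primary ones.

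P4ha1, at chromosome 10, 59323296 to 59373304 (GRCm38, as are all gene positions below), encodes the more widely used catalytic alpha subunit of prolyl 4-hydroxylase. Primary cells had 234 CPM (232 to 237) of it and cultured cells 151 CPM (149.8 to 152), a log2 ratio of -0.63 (-0.65 to -0.61). P4ha2 (chromosome 11, 54100095 to 54131665), the alternative alpha subunit, which is prominent in cartilage and bone, had 176 CPM (173 to 178) and 65.3 CPM (64.5 to 66.2). It was thus 2.69-fold lower in the cultured cells, with a log2 ratio of -1.43 (-1.45 to -1.40). P4hb (chromosome 11, 120560298 to 120573253) encodes protein disulfide isomerase, which is the beta subunit of the enzyme and also forms disulfide bonds in many other proteins. Its levels were 566 CPM (563 to 570.5) and 408 CPM (406 to 409.9), with a log2 ratio of -0.47 (-0.49 to -0.46).

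The alpha subunits thereby changed in proportion. P4ha1 made up 55.0% of the alpha subunit UMIs of primary cells and 61.9% of those of cultured cells, whereas P4ha2 made up 41.3% and 26.8%. P4ha3, the least used alpha subunit and not a member, accounted for 3.70% and 11.3%. The sum of the alpha subunits was 425 CPM for primary and 244 CPM for cultured cells, 1.74-fold less, beside the 1.39-fold lower level of P4hb.

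Plod1 (chromosome 4, 147909753 to 147936767), the lysyl hydroxylase of the helical region, had 108 CPM (107 to 110.2) in primary cells and 36.1 CPM (35.4 to 36.7) in culture. Its 3.01-fold lower level gave a log2 ratio of -1.59 (-1.62 to -1.55), the lowest of the 10. Plod2 (chromosome 9, 92542223 to 92608428) hydroxylates the telopeptides, the short ends of the chain where cross-links start. It stood at 415 CPM (412 to 418) and 325 CPM (323 to 327), with a log2 ratio of -0.35 (-0.37 to -0.34), the smallest difference among the members. Plod3 (chromosome 5, 136987019 to 136996648), which also adds sugars to hydroxylysine, had 85.2 CPM (83.6 to 86.7) and 61.5 CPM (60.7 to 62.4), with a log2 ratio of -0.47 (-0.50 to -0.44). The share of Plod1 among the lysyl hydroxylase UMIs went from 17.8% to 8.54%, and that of Plod2 from 68.2% to 76.9%, while Plod3 held 14.0% and 14.6%.

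Serpinh1 (chromosome 7, 99345376 to 99353239), the gene of HSP47, held 41.0% of all member UMIs of primary cells and 22.4% of those of cultured cells. Its level was 1183 CPM (1177 to 1188) and 693 CPM (690.4 to 696), with a log2 ratio of -0.77 (-0.78 to -0.76), just within 2-fold. The ER members together, the prolyl and lysyl hydroxylase genes and Serpinh1, summed to 2767 and 1739.7 CPM, a log2 ratio of -0.67.

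Lox (chromosome 18, 52516067 to 52529867), the founding lysyl oxidase, behaved in the opposite way. It was counted 2370 times in the primary library, or 17.3 CPM (16.6 to 18.0), and 389445 times in the cultured library, or 1179.7 CPM (1176 to 1183). This was 68.3-fold higher (65.6 to 71.1), a log2 ratio of 6.09 (6.03 to 6.15). Loxl1 (chromosome 9, 58287738 to 58313186), which is known for the cross-linking of elastin, had 61.6 CPM (60.3 to 63.0) and 152 CPM (150.4 to 153), 2.46-fold higher in the cultured cells. Loxl2 (chromosome 14, 69609068 to 69695834), which cross-links type IV collagen, had 41.1 CPM (40.1 to 42.2) and 26.1 CPM (25.5 to 26.6), with a log2 ratio of -0.66 (-0.71 to -0.61). At a 4-fold threshold Lox alone was called among the members, against 10.6% of all genes higher, and none was called lower, against 5.73%.

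The lysyl oxidase family as a whole changed its leading gene. In the primary library 62.9% of the family's UMIs were from Loxl3, a relative that is not a member, 13.4% from Loxl4, 12.2% from Loxl1, 8.12% from Loxl2 and 3.41% from Lox. In the cultured library Lox made up 80.6% and Loxl1 10.4%, whereas Loxl3 had 6.31%, Loxl2 1.78% and Loxl4 0.953%. Loxl3 stood at 319 and 92.4 CPM and Loxl4 at 67.8 and 14.0 CPM, so both were lower in the cultured cells. The family sum was 506 CPM for primary and 1464 CPM for cultured cells.

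**Figure D2:**
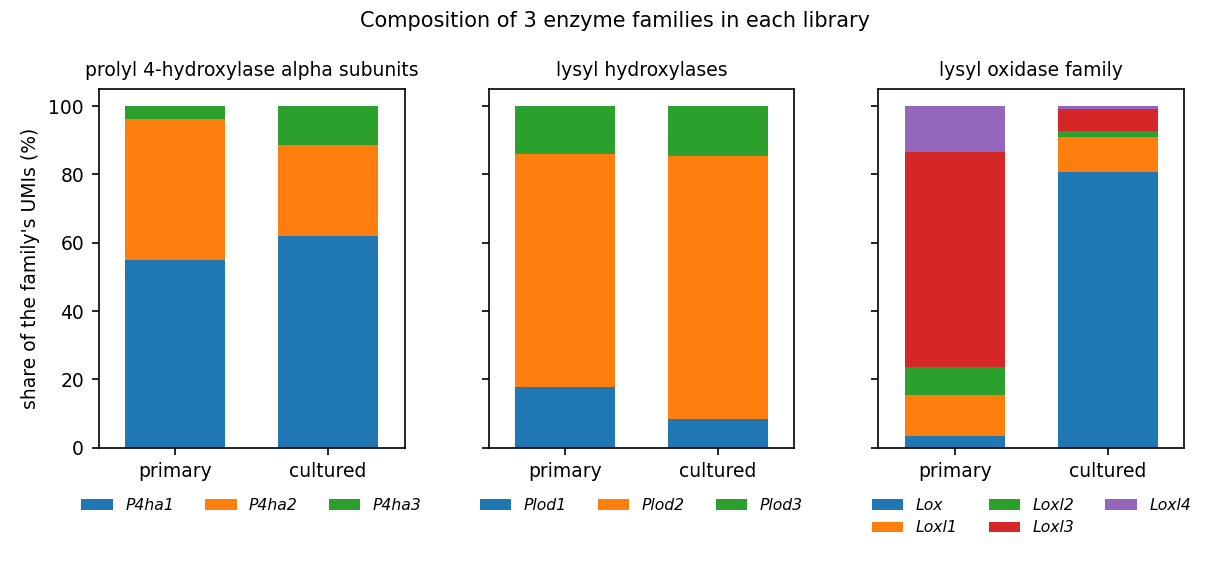
Share of each gene in the UMIs of its family, in percent, for the prolyl 4-hydroxylase alpha subunits, the lysyl hydroxylases and the lysyl oxidases, with 1 bar for each library. Lox took 3.41% of the lysyl oxidase UMIs of primary and 80.6% of those of cultured cells, while Plod2 led the lysyl hydroxylases and P4ha1 the alpha subunits in both.

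Because of Lox, the sum of the 10 members hid these differences. Primary cells had 2887 CPM and cultured cells 3097 CPM, a log2 ratio of 0.10, which turned to -0.10 with TMM scaling and to -0.12 with median-of-ratios scaling. Lox held 0.598% of the member UMIs of primary cells and 38.1% of those of cultured cells. Without it, the other 9 summed to 2870.1 and 1918 CPM, a log2 ratio of -0.58.

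Summed, the substrates had fallen much further than the enzymes. The 44 collagen genes of the files summed to 84397 CPM for primary and 4372 CPM for cultured cells, 19.3-fold less, with Col2a1 going from 53268 to 489.8 CPM. For each 1000 collagen UMIs there were 34.2 member UMIs among primary and 708 among cultured cells. Relative to the collagen sum, every member was thus higher in culture, by 6.42 times for Plod1, 7.18 times for P4ha2 and 11.3 to 15.1 times for the other ER members. Loxl2 was 12.2 times higher on this scale and Loxl1 47.5 times. For Lox the ratio went from 0.205 to 269.8 UMIs per 1000 collagen UMIs. This scale is set mainly by Col2a1, without which the collagens summed to 31128 and 3882 CPM, 8.02-fold less. That sum still holds the other cartilage collagens. Col1a1 (149 and 705 CPM), Col3a1 (112 and 151), Col5a1 (54.1 and 138) and Col5a2 (36.5 and 1005) rose instead, while Col1a2 (691 and 187) fell. Set against the chains that rose, the ER members were lower in culture.

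The other genes of collagen production, taken from lists drawn up by function, did not share one direction. The counts past 2-fold given for each list stand against 27.2% of all 9115 genes higher and 12.5% lower. The partners that modify the helix alongside the members followed the same side as P4ha2 and Plod1. Of 14, 8 were at least 2-fold lower in the cultured cells and 0 higher, with a median log2 ratio of -1.30. Among them were Colgalt2, which puts galactose on hydroxylysine (44.6 and 0.273 CPM, a log2 ratio of -7.36), the prolyl 3-hydroxylases P3h2 (-3.21) and P3h1 (-2.49), and the ER prolyl isomerase Fkbp9 (-2.15). Fkbp7 stood at 70.3 and 70.1 CPM, and Ppib, the isomerase cyclophilin B, at 1219 and 781 CPM.

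General chaperones of the ER lay on the other side. All 12 had a log2 ratio above 0, with a median of 1.31, and 8 were at least 2-fold higher in the cultured library, or 7 with either other scaling. Sdf2l1 (3.25), Hyou1 (2.73), Hsp90b1 (2.09) and Manf (2.09), which serve the folding of secreted proteins at large, had the highest log2 ratios. The collagen-binding Serpinh1, with -0.77, thus differed in direction from these chaperones of the same compartment.

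Around the lysyl oxidases, 4 of 8 other family members and cofactors were at least 2-fold lower and 1 was higher, with a median of -0.82. Postn, a matrix protein that brings the activating protease to Lox, was lower (91.0 and 3.09 CPM, -4.88), as were Loxl4 (-2.28) and Loxl3 (-1.79), while Pxdn, which cross-links type IV collagen by sulfilimine bonds, was higher (1.40). The copper transporter Atp7a, which loads lysyl oxidases, stood at 28.1 and 24.3 CPM. Bmp1, the protease that releases active Lox and trims procollagen, stood at 79.4 and 43.6 CPM, a log2 ratio of -0.87.

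Among 6 measured genes of procollagen processing, 3 were higher and 2 lower, with a median of 0.17 that turned to -0.02 with TMM and -0.04 with median-of-ratios scaling. The N-proteinase Adamts3 (139 and 6.25 CPM) and the enhancer Pcolce2 (264 and 14.9 CPM) were lower, whereas Adamts2 (2.98 and 12.7 CPM) and Pcolce (51.2 and 291 CPM), their relatives, were higher. Of 10 genes of procollagen export, 1 was higher and 2 lower. Creb3l1, a factor that drives secretory genes, rose (13.1 and 43.2 CPM), and its relative Creb3l2 (284 and 125 CPM) and the collagen-binding Sparc (46701 and 3144 CPM) were lower.

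The substrates moved in both directions. Of 20 collagens that reached 10 CPM, 10 were at least 2-fold lower and 6 higher, with a median of -0.94. The cartilage collagens Col9a2 (-12.81), Col9a3 (-11.36), Col11a2 (-11.13) and Col9a1 (-10.53) had the lowest log2 ratios. Of the chains named for their part in fibroblast matrix, Col5a2 (36.5 and 1005 CPM) and Col1a1 (149 and 705 CPM) were higher, while Col1a2 (691 and 187 CPM) was lower. A small primary cluster described below held 90.6% of the primary Col1a1 UMIs. In the other primary clusters together Col1a1 stood at 14.3 CPM, and the cultured level was 49.4-fold higher than that. Of 9 elastic fibre genes, 4 were higher and 3 lower, with a median of 0.73. Fbln5, which tethers elastin and Loxl1, was higher (4.85 and 725 CPM, a log2 ratio of 7.22, above that of Lox), while Mfap4 (-5.61), Mfap2 (-3.80) and elastin itself (Eln, 205 and 17.3 CPM, -3.56) were lower.

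Genes of the hypoxia response, to which P4ha1, P4ha2, Plod2 and Lox are often assigned, showed no common direction. Of 11 measured, 2 were higher and 2 lower, against 27.2% and 12.5% of all genes, with a median of -0.26. With either other scaling 1 was higher and 3 were lower. Adm was higher (1.76 and 42.9 CPM), and the glucose transporter Slc2a1 (321 and 44.0 CPM) and Pfkfb3 (45.4 and 13.3 CPM) were lower. Aldoa, at 244 and 489.7 CPM, was 2.01-fold higher and within 2-fold with the other scalings.

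**Figure D3:**
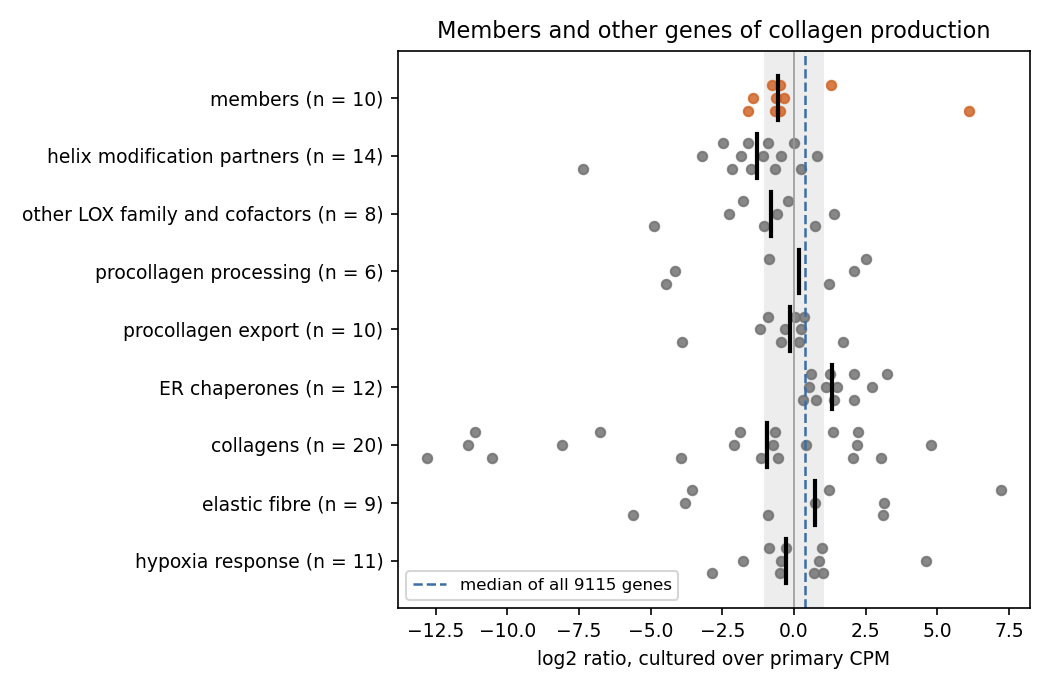
The log2 ratio of cultured over primary CPM for each gene that reached 10 CPM, by list, with the members in orange. Black bars are medians, the grey band marks 2-fold and the dashed line is the median of all 9115 genes (0.37). The helix modification partners lie mostly left of 0, with a median of -1.30, and all 12 ER chaperones lie right of it.

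Single cells were compared at one depth, by drawing 5000 UMIs from each of the 10959 primary and 4543 cultured cells that had as many. Lox was then seen in 6.66% of primary cells (6.20 to 7.14) and in 94.8% of cultured cells (94.1 to 95.4), or 12.8% and 98.0% without thinning. Loxl1 was seen in 24.0% and 50.2% of cells (41.7% and 84.1% without thinning). These were the only 2 of the 10 members found in a larger share of cultured cells, against 65.2% of all genes. For P4ha2 the shares were 50.6% and 25.9%, and for Plod1 39.8% and 16.9%. Unthinned, these were 69.0% and 77.8% for P4ha2 and 62.3% and 68.9% for Plod1, the reverse order at the greater depth of the cultured cells. The remaining members kept closer shares, from 97.6% and 94.2% for Serpinh1 (98.3% and 93.8% unthinned) to 15.1% and 9.95% for Loxl2 (29.3% and 46.7%).

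Transcripts free in the suspension can add UMIs to cells that do not make them. In the cultured library, 9 cells led by the blood cell genes Pf4 and Lyz2, with a median of 35946 UMIs against 56880 in the others, gave a level of 281 CPM for Lox (232 to 338), and 5 of the 9 showed it after thinning (55.6%, 21.2 to 86.3). The 94.8% of all cultured cells lay above that interval. In the same 9 cells Loxl1 was seen in 0 cells, which allows a share of up to 33.6%, and Serpinh1 in 33.3% (7.49 to 70.1), and the cultured shares of 50.2% and 94.2% lay above these intervals. Within a primary cluster described below, 26 cells led by endothelial and mast cell genes, with a median of 9403 UMIs against 10026, held a single Lox UMI, or 3.41 CPM (0.0864 to 19.0). After thinning Lox was seen in 0 of 18 of them, which allows a share of up to 18.5%. The primary share of 6.66% lay within that range, so these cells cannot tell it apart from a background. They also held markers of erythroid cells, and Col2a1 at 26171 CPM, against 53268 CPM in the whole primary library. When all primary cells were clustered at resolution 1.0, a cluster of 25 cells, also with 1 Lox UMI, carried endothelial and erythroid but no mast cell markers. The mast cell genes may thus come from few of the 26 cells. Whether the 26 cells are barcodes that caught several cells was not tested, so they are an uncertain measure of free transcripts. The primary share of Serpinh1, 97.6%, also lay within the interval of these cells (65.3 to 98.6).

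The shares of several other members could also not be told apart from those of the 9 or the 26 cells. For P4ha2, Plod1, Plod3 and Loxl2 they lay within the intervals of such cells in both libraries, for Plod1 between 21.5% and 69.2% and for Loxl2 between 1.38% and 34.7% in the primary one. The cultured shares of P4ha1 and P4hb did so as well. Plod2 and Loxl1 were the members whose shares lay above these intervals in both libraries. Summed levels in these cells lay on either side of those of the libraries. Plod1 stood at 83.9 CPM (58.1 to 117) in the 9 blood-led cells, above the 36.1 CPM of the cultured library. The highest cultured cluster of at least 100 cells had 45.5 CPM of it, and the cultured barcodes set aside by the cell filter 34.1 CPM. In the 26 primary cells Plod1 stood at 167 CPM (124 to 221), above the 108 CPM of the primary library. P4ha2 stood at 51.8 CPM (32.1 to 79.2) in the blood-led cells, an interval that includes the 65.3 CPM of the cultured library, and at 58.0 CPM (33.8 to 92.9) in the 26 primary cells, below 176 CPM. Whether these cells make the transcripts, hold free ones or share a barcode with other cells was not tested.

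A cell of either library held a median of 5 of the 10 members at 5000 UMIs, with an interquartile range of 4 to 6. The median sum of member UMIs was 13 per primary and 14 per cultured cell, beside a median of 417 and 20 collagen UMIs. All 10 were seen together in 7 primary and 6 cultured cells.

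The cells of each library were then clustered without the 10 members. The primary library gave 10 clusters, of 121 to 2250 cells. In 9 of them Col1a1 stood at 4.34 to 59.9 CPM and Col2a1 at 33474 CPM or more, and 1 cluster of 289 cells (2.46% of cells, 1.91% of UMIs) was led by Col1a1 (7071 CPM) and Postn. It also held the endothelial and mast cell-led cells named above, and Col2a1 at 25677 CPM. That small cluster held 20.1% (18.5 to 21.8) of all primary Lox UMIs. Lox stood there at 182 CPM, against 14.1 CPM in the other 9 clusters together, a 12.9-fold difference. Loxl1 (127 CPM) and Loxl2 (100.4 CPM) were 2.10-fold and 2.51-fold higher in it than in the others. Plod2 (249.6 and 418 CPM) and P4ha2 (109.5 and 177 CPM) were lowest of all clusters in it, and the cluster held 1.78% of the summed member UMIs, near its share of all UMIs. Against the other 9 clusters alone, Lox was 83.8-fold higher in the cultured library, and among the other members the log2 ratio of Loxl2 moved most, from -0.66 to -0.62.

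Divided again, the Col1a1-led cells fell into groups of 9 to 55 cells. The largest, of 55 cells, held Lox at 424 CPM (354 to 502) and Col1a1 at 18823 CPM, and another of 44 cells, led by Col1a1, Postn and the tendon gene Tnmd, held Lox at 514 CPM (418 to 625). The lowest Lox level of a cultured cluster of at least 100 cells was 982 CPM. In a group of 52 cells with both Col1a1 (4389 CPM) and Col2a1 (40959 CPM), Lox stood at 93.1 CPM (74.1 to 115). For each 1000 Col1a1 UMIs there were 25.7 Lox UMIs in the Col1a1-led cluster and 985 in the other clusters, where Col1a1 stood at 14.3 CPM. The source of the Lox UMIs in those other clusters was not tested.

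Other members varied less among the primary clusters. Lox ranged 36.9-fold, from 4.93 CPM in a cluster led by Runx3 and Wnt5b, and Loxl2 and Loxl1 ranged 5.11-fold and 4.28-fold. The ER members ranged between 1.79-fold for P4hb and 2.62-fold for Plod3. Plod2 was highest (617 CPM) in the Runx3 and Wnt5b-led cluster, where Lox and Loxl1 were lowest. Serpinh1 lay between 689 CPM in a cluster led by Clu and Prg4, genes of the joint and cartilage surface, and 1621 CPM in the smallest cluster, of 121 cells, which also had the highest P4ha1 (422 CPM), P4ha2 (277 CPM), P4hb (782 CPM) and Plod1 (169.6 CPM).

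In the cultured library, Lox was high in all 8 clusters of at least 100 cells. It ranged 1.47-fold, from 982 CPM in dividing cells led by Mki67 and Cenpf to 1443 CPM in a cluster led by Hmcn1 and Il1rl1. Plod2 had the widest range, 3.39-fold, from 162 CPM in a cluster of 804 cells with a median of 1244.5 UMIs to 549 CPM in a cluster led by Nr5a2 and Barx1. That shallow cluster was also the lowest for P4ha1, P4ha2, P4hb, Plod1, Plod3, Loxl1 and Serpinh1, and the part of depth in this was not tested. With at least 1000 genes and at most 5% mitochondrial UMIs asked of each cell, the same 4 members were past 2-fold between the libraries.

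**Figure D4:**
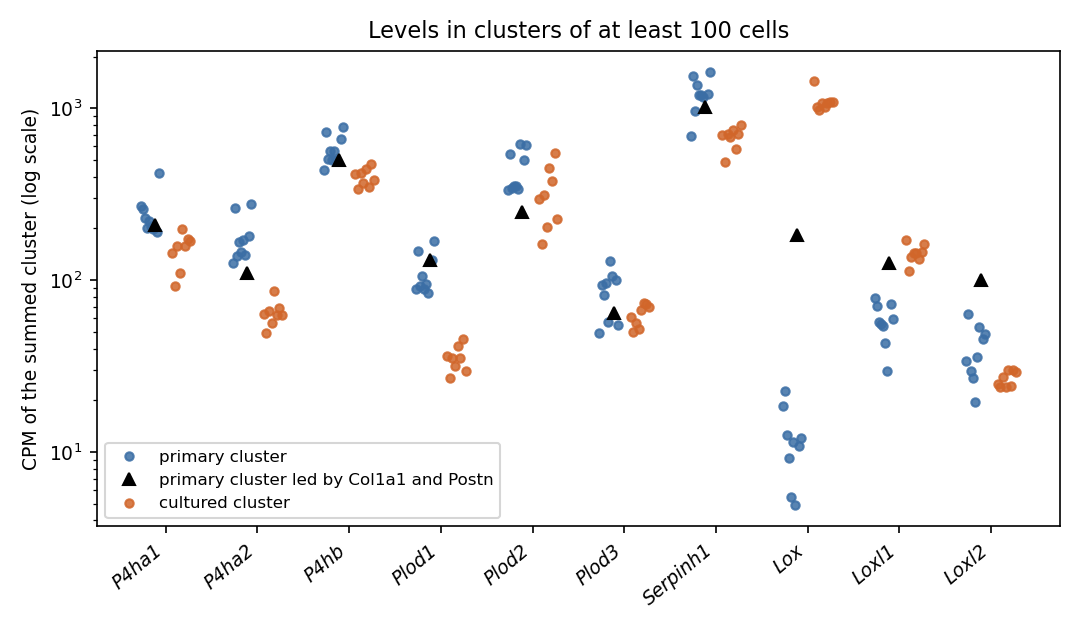
Level of each gene in every cluster of at least 100 cells, in CPM on a log scale, with the Col1a1 and Postn-led primary cluster as a triangle. For Lox the 8 cultured clusters lie between 982 and 1443 CPM and the triangle at 182 CPM, the highest of the 10 primary clusters.

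Across the 10 primary clusters some pairs of members varied together and others did not. P4hb followed P4ha2 (Pearson r = 0.93), Plod1 (0.85) and Serpinh1 (0.85), whereas Lox followed Loxl1 (0.85) and Loxl2 (0.72) and ran against Plod2 (-0.53). The lowest r was that of P4ha1 with Plod3 (-0.60), both ER members. Plod3 hardly followed P4ha2 (0.15), P4hb (0.19), Plod1 (-0.14) or Plod2 (0.20), P4ha1 had an r of 0.25 with Serpinh1, and Plod1 one of 0.42 with Lox. These values on 10 clusters of 1 library, 1 of which held the extremes of Lox, Loxl1 and Loxl2, are a description. Of the 45 pairs of members, 34 had r above 0 in the primary, with a median of 0.25, and 42 over the 8 cultured clusters, with a median of 0.61. In the cultured clusters P4ha1 followed P4ha2 (0.91) and Plod1 followed Plod2 (0.96), while r of Lox lay between -0.27 (Loxl2) and 0.67 (Loxl1). Among these 8 clusters the shallow one of 804 cells held the lowest level of every member but Lox and Loxl2. Its part in the cultured r values was not tested. Over all 18 clusters, centred within each library, the genes most like the summed members were Prkcsh (0.96), Pdia4 (0.96), P3h1 (0.93), Rpn1 (0.92) and Slc35a2 (0.91).

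The members were also read against the collagen content of each cell. Cells thinned to 5000 UMIs were ordered by their collagen UMIs and split into 4 bins of equal size, and the members were counted per 1000000 UMIs that were not from collagens. In the primary library P4ha2 stood at 106 in the lowest and 269 in the highest bin, 2.53-fold more. Serpinh1 (819.7 and 1623) and P4hb (429.9 and 749) followed with 1.98-fold and 1.74-fold. P4ha1 (262 and 271), Lox (22.6 and 22.7) and Loxl1 (72.4 and 75.1) had nearly equal levels in both. In the bins between them all 3 stood lower.

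In the cultured library the order was another one. Loxl2 differed most between the lowest and highest bin (14.3 and 35.4, 2.48-fold), then Plod2 (233 and 428, 1.84-fold) and P4ha1 (114 and 197, 1.72-fold). Serpinh1 stood at 599 and 785, and Lox at 1018 and 1131. Lox and Loxl1 thus differed by 1.11-fold or less between these bins in either library, while the sum of the members was 1.67-fold higher in the highest bin of the primary and 1.29-fold higher in that of the cultured library. Whether these gradients follow cell type or depth within a library was not tested.

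**Figure D5:**
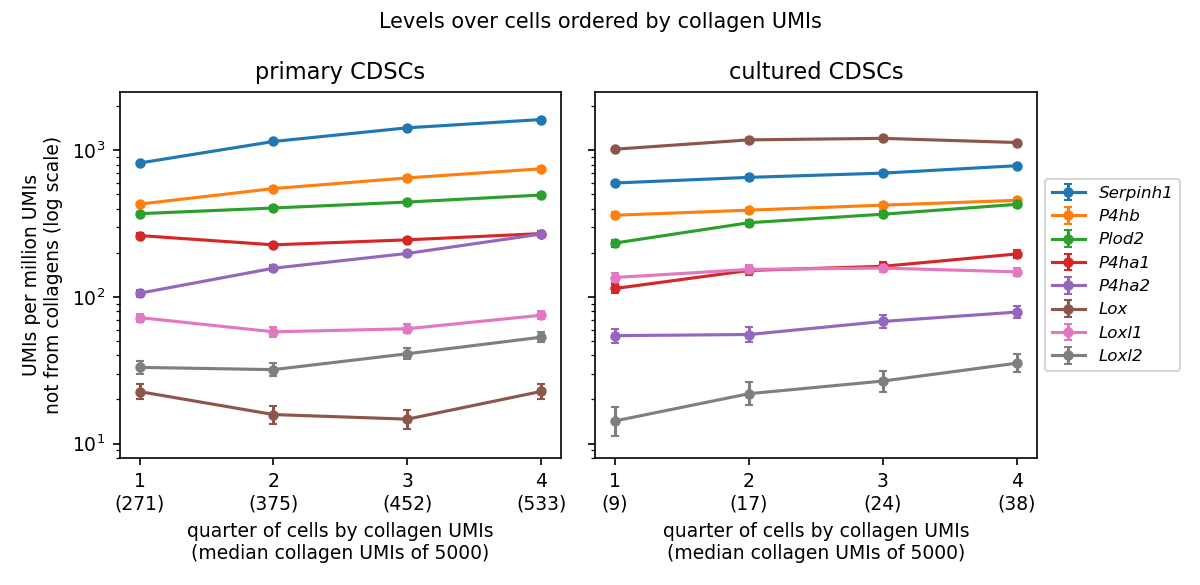
Levels of 8 members per 1000000 UMIs not from collagens (log scale) over the 4 bins of cells ordered by collagen UMIs, with exact 95% Poisson intervals and the median collagen UMIs of each bin under the axis. P4ha2, Serpinh1 and P4hb climb over the primary bins while Lox and Loxl1 dip and end near where they began, and in the cultured library Loxl2, Plod2 and P4ha1 climb most.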

How the data were processed

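The study's methods name the MobiDrop platform and also the Chromium 3' v3.1 kit. They give a total of 20000 viable cells, without stating whether this was per library. Reads had been counted against mm10/GRCm38 with Cell Ranger 7.0.0, per the file headers and the study's methods. The annotation release is not given in the sources used here. The authors deposited UMI counts for every gene in each called barcode, without normalisation. Groups came from the treatment labels.

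Cells needed 500 genes, 1000 UMIs and a mitochondrial share of 10% or less. Scrublet's automatic threshold (scanpy 1.11.5) called 0 primary and 1 cultured doublets and had therefore not worked, so no doublets were removed, and the 1118 and 461 cells of highest score were left out as an alternative. Counts were summed per library and scaled to CPM, and counts under 3 were raised to 3 in ratios (0.0219 and 0.00909 CPM). Intervals are Poisson for counts, conditional for ratios and Clopper-Pearson for shares. Each library was clustered with leidenalg 0.10.2 at resolution 0.5 (20 neighbours, 10 principal components, 2000 variable genes, members left out), and the Col1a1-led cells again. TMM factors came from edgeR 4.0.16 and size factors from DESeq2 1.42.0, on the summed counts. No test was run. Coordinates came from GENCODE by identifier, and thinning and intervals were tested on simulated data.

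Members, lists and clusters to describe were chosen with earlier results of these data known. Named genes were all members, up to 4 per list with the largest change, and the 5 non-members with at least 50 CPM most like the summed members. Bmp1, Atp7a, Fkbp7, Ppib, Eln, Col2a1, Col5a2, Col1a1 and Col1a2 were named besides for their role, with their values seen, and single clusters, sub-clusters and pairs of members after their values were seen.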

Additional observations from a re-analysis of the deposited data

How the results depend on the processing

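All 10 members kept the direction of their log2 ratio, and the same 4 stayed past 2-fold, with every barcode, a stricter cell filter, a mitochondrial limit of 20%, presumed doublets left out, TMM or median-of-ratios scaling and equal weight for each cell. The log2 ratio of the summed members was 0.10 and moved to -0.10 with TMM, -0.12 with median of ratios and 0.21 with equal weight. With a 4-fold threshold the members called were 1 higher and 0 lower. The log2 ratio of member UMIs per 1000 collagen UMIs, 4.37, was 4.37 with every barcode, 4.38 with the stricter filter, 4.36 with the mitochondrial limit, 4.36 without presumed doublets, 4.39 with equal weight and 4.46 with fibrillar collagens alone, and scaling cannot change it. Over all genes, a minimum of 1 CPM in place of 10 gave 3716 higher ones in place of 2482 and 1936 lower ones in place of 1143, and the split of 2482 higher and 1143 lower genes (68.5% higher) became 1984 and 1408 (58.5%) with TMM and 1935 and 1442 (57.3%) with median of ratios. Without thinning, 7 members in place of 2 were seen in a larger share of cultured cells. No paired analysis was possible because each group had 1 library, which also leaves no replicate to leave out. Depth limited little in the summed libraries, where the least counted member had 2370 UMIs, but it limited the small clusters and the single-cell shares of Lox and Loxl2.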

Other observations

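The cell filter set aside 5460 of the 10798 cultured barcodes, 5336 of them for having under 1000 UMIs. These barcodes, with a median of 775 UMIs, held Lox at 1599.9 CPM (1569 to 1631), above the 1179.7 CPM of the kept cells, and Loxl2 at 45.7 CPM (40.6 to 51.3), above 26.1 CPM. Serpinh1 stood lower in them (549.7 CPM against 693), as did P4hb (338 against 408), while P4ha1 (162 against 151) and Plod1 (34.1 against 36.1) were close. The 150 primary barcodes set aside, with a median of 1066 UMIs, held 3 Lox UMIs, or 14.3 CPM (2.94 to 41.7), an interval that includes the 17.3 CPM of the kept cells.

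A group of 39 primary cells within the Col1a1-led cluster, led by Chodl, Cilp and Thbs4, held Loxl2 at 326 CPM (245 to 425), beside 41.1 CPM in the whole primary library and 26.1 CPM in the cultured one. In these cells Lox stood at 338 CPM (255 to 439) and Plod2 at 223 CPM (157 to 308). The group was singled out after its values were seen, and with 54 Loxl2 UMIs from 1 library it is a description.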
